A study of Mus musculus with 10 samples.

Results

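The expression of 38 genes of SNARE-mediated vesicle fusion was described in the hippocampus of Ts65Dn mice and their control littermates. The genes were taken by symbol, and a gene with several transcript clusters (a transcript cluster is the set of probes summarised into 1 array value) was read from the brightest of them on average. Of the 38 members, 37 had a transcript cluster of their own, out of 19938 such genes on the array. They comprised 14 of 15 SNARE proteins and 6 factors that handle SNARE proteins. The others were 7 synaptotagmins and Doc2 proteins, called calcium sensors here, and 10 genes of the vesicle and the active zone. The exception was Vamp2, the main vesicle SNARE of forebrain synapses, whose only transcript cluster also carried the symbol Ubr3.

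Ts65Dn hippocampi came from 5 male mice aged 16 weeks that carry a small extra chromosome with part of mouse chromosome 16 and the centromeric part of chromosome 17. The control hippocampi came from 5 male littermates of the same age without it. Both groups were on an F1 hybrid B6C3B background, in which the C3B parent is a C3H line with the BALB/c allele of Pde6b. The left and right hippocampus of a mouse gave 1 RNA, hybridised to 1 Affymetrix Mouse Gene 1.0 ST array, so each value is an average over all cells of the structure and each array is 1 mouse. The Ts65Dn extra chromosome also holds genes of chromosome 17 with no homologue on human chromosome 21, which limits it as a model of Down syndrome.

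Neurotransmitter is released when a synaptic vesicle fuses with the plasma membrane. A SNARE protein on the vesicle (a VAMP) winds together with SNARE proteins on the target membrane (a syntaxin and a SNAP protein), and the energy of this bundle drives fusion. Complexins and Munc13 proteins prepare the complex, synaptotagmins and Doc2 proteins bind calcium and trigger the final step, and NSF with its SNAP adaptors takes the used complexes apart. Scaffolds of the active zone hold the vesicles and the calcium channels together, and synapsins tether the reserve of vesicles.

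Values are log2 signals, on which a difference of 1 is a doubling. The median signal lay between 7.38 and 7.41 on the 10 arrays, and any pair of arrays correlated at 0.9938 or more over the tested transcript clusters. The genes in 3 copies separated the genotypes: the mean over 127 genes of the chromosome 16 segment was 7.56 to 7.62 in Ts65Dn mice and 7.36 to 7.39 in control mice. None of the members lies on either segment (0 members in 3 copies). Markers of hippocampal neurons were present in all mice, with means of 11.34 to 11.39 in Ts65Dn mice and 11.30 to 11.39 in control mice for 8 general neuronal genes. Markers of the choroid plexus, a tissue next to the hippocampus, varied widely within both genotypes, with means of 7.07 to 9.80 in Ts65Dn mice and 7.12 to 9.69 in control mice over 7 genes. All 37 measured members had mean signals above the median of the tested transcript clusters. Doc2a was among the dimmest of them, with means of 7.64 in Ts65Dn mice and 7.94 in control mice, not far above the array medians.

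No member passed the test. With limma and Benjamini-Hochberg adjustment over all 23410 transcript clusters tested, 0 of 37 members had an adjusted p under 0.05, where 0.281% of all genes did. Most of those genes lie on the 3-copy segments, and of the 19780 genes outside them, as all members are, 3 passed (0.0152%). At an unadjusted p under 0.05, 0 members were higher in Ts65Dn mice, against 1.76% of all genes and 1.36% of those outside the segments. In the other direction 1 member, Doc2a, was lower at that limit (2.7% of members), against 1.56% of all genes. A rank method over all 25 pairs of a Ts65Dn and a control array gave 3 members as higher (Stx1a, Stx3 and Vamp1), which is 8.11% of them, against 2.9% of all genes and 2.49% of those outside the segments. The same method gave 1 member, Doc2a, as lower, against 2.66% of all genes. With shares this small, 1 to 3 genes make the difference from the background.

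The differences were small for nearly all members. They ranged from -0.30 to 0.15 on the log2 scale, with a median of 0.032 (1.02-fold), where the median of all genes was -0.003. Without Ts65Dn mouse 3 the median of the members was 0.013. The value was positive for 30 of 37 members (81.1%), against 47.6% of all genes. The share among genes of like signal was not computed, and the members were chosen with earlier results of these data known. Standard errors of the members were 0.03 to 0.13, with a median of 0.05, so most of these positive differences were smaller than their own error. For 29 of 37 members (78.4%) the 95% interval of the fold change lay within 1.2-fold in either direction, as it did for 87.2% of all genes. For the other 8 members the interval reached beyond 1.2-fold in at least 1 direction with 5 mice per genotype.

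**Figure D1:**
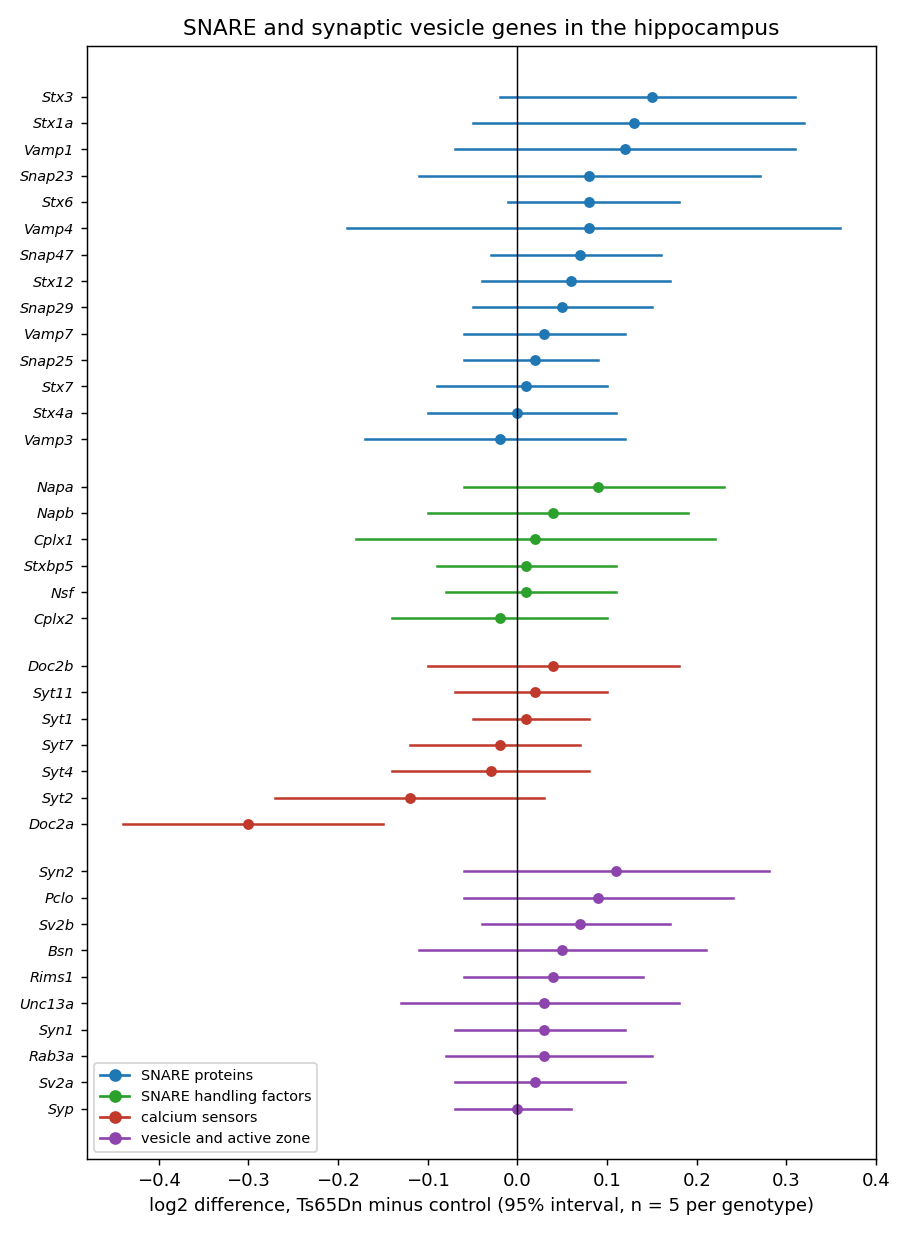
Difference in log2 signal (Ts65Dn minus control) of each measured member, with its 95% interval from limma (n = 5 mice per genotype), grouped and coloured by role. The interval of Doc2a lies below 0, and the intervals of the other 36 members include 0.

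Doc2a encodes a soluble protein with C2 domains that binds calcium with high affinity and is known in cultured neurons for spontaneous and asynchronous release of glutamate. Its log2 signal was 7.63, 7.84, 7.51, 7.55 and 7.67 in Ts65Dn mice 1 to 5, against 7.85, 7.87, 8.03, 8.03 and 7.91 in control mice 1 to 5. Every Ts65Dn mouse was below every control mouse, with Ts65Dn mouse 2 close to control mice 1 and 2 and the other Ts65Dn mice well apart from them. Such a separation, with every Ts65Dn array below every control array, was found for 0.346% of all genes. The reverse separation, with every Ts65Dn array above every control array, was found for 0 members, for 0.532% of all genes and for 0.202% of those outside the 3-copy segments.

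Doc2a averaged 7.64 ± 0.130 in Ts65Dn mice and 7.94 ± 0.0884 in control mice (SD, n = 5 each). The difference was -0.30 ± 0.07 (log2, SE), or 0.813-fold with a 95% interval of 0.736 to 0.899. Its unadjusted p was 0.000779 in limma, and after adjustment over all transcript clusters p was 0.188, so the call was not made. The exact permutation test over the 252 allocations of the mice gave p = 0.00794 (two-sided), the smallest p that 5 against 5 mice allow. Doc2a was named for a mouse by mouse account with its difference already known, so these p-values do not come from an independent choice of gene. With 1 mouse left out the Doc2a difference stayed between -0.35 and -0.27. The adjusted p was 0.246 to 0.568 in 9 of these 10 fits, in which no call was made, and 0.0386 without Ts65Dn mouse 2, the mouse nearest to the controls. In an average over the whole tissue, fewer cells of a type and less RNA per cell cannot be told apart.

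The Doc2a gene lies on chromosome 7 from 126846983 to 126852705 (GRCm38), where its end overlaps that of Ino80e, a gene of a chromatin remodelling complex, which spans 126851584 to 126862372. A second transcript cluster carried both symbols. It read 7.93, 7.85, 7.88, 7.71 and 7.64 in Ts65Dn mice and 7.92, 7.81, 7.83, 7.88 and 7.79 in control mice. There Ts65Dn mice 4 and 5 were below all controls and Ts65Dn mouse 1 just above them. Ts65Dn mice 2 and 3 were within the control range. The difference was -0.05 ± 0.06 (SE; exact permutation p = 0.476). Which transcripts this shared cluster reports was not tested.

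Markers of CA1 pyramidal neurons, averaged together, were also lower in Ts65Dn mice, although the ranges of the genotypes overlapped. The mean of the 4 CA1 markers measured of 5 listed was 10.24, 9.98, 10.27, 10.22 and 10.22 in Ts65Dn mice, against 10.42, 10.33, 10.45, 10.33 and 10.24 in control mice, a difference of -0.168. Of these 4 markers, 0 passed the adjusted threshold, 1 had a positive difference, and 2 were lower at an unadjusted p under 0.05. Wfs1, an endoplasmic reticulum protein abundant in CA1, was at -0.35 ± 0.07 (SE; limma, adjusted p = 0.0925), and Man1a, a mannosidase, at -0.19 ± 0.07 (SE). Fibcd1 was at -0.14 ± 0.1 and Mpped1 at 0.01 ± 0.09 (SE). The thalamic markers differed by -0.151 in their mean. They averaged 8.21 to 8.43 in Ts65Dn mice and 8.25 to 8.86 in control mice, with control mouse 5 the highest. Dentate granule cell markers averaged 9.17 in both genotypes. Interneuron markers differed by 0.008, and microglial and endothelial markers by 0.044 each. Astrocyte markers differed by -0.028, oligodendrocyte markers by -0.053, and those of CA2 and CA3 by -0.037. Of the 8 CA2 and CA3 markers, 3 had a positive difference. Cacng5, at -0.34 ± 0.13 (SE), was the 1 of them that was lower at an unadjusted p under 0.05. The part of these markers in the Doc2a difference was not tested. With the choroid plexus mean as a covariate, the Doc2a difference was -0.30 (adjusted p = 0.261).

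The other 6 calcium sensors lay nearer to 0, and 0 of them reached an unadjusted p under 0.05. Doc2b, the paralogue of Doc2a that is linked mainly to GABA release in cultured hippocampal neurons, read 10.20, 10.06, 10.31, 10.25 and 10.08 in Ts65Dn mice and 10.15, 10.29, 10.05, 10.21 and 10.01 in control mice. The genotypes overlapped over nearly their whole range, at 0.04 ± 0.06 (SE), with an interval of 0.931 to 1.13-fold. Whether the difference of Doc2a departs from that of Doc2b was not tested.

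Syt2, the fast calcium sensor of inhibitory and hindbrain synapses, had the second smallest p of the calcium sensors. It read 7.67, 7.92, 7.74, 7.75 and 7.92 in Ts65Dn mice, against 7.79, 7.97, 8.09, 7.89 and 7.85 in control mice. The difference was -0.12 ± 0.07 (SE), the interval ran from 0.832 to 1.02-fold, and the groups overlapped (exact permutation p = 0.143). Syt1, the fast calcium sensor of most forebrain synapses, was at 0.01 ± 0.03 (SE), with an interval of 0.963 to 1.05-fold. Syt7, a slow sensor with high calcium affinity, was at -0.02 ± 0.04. Syt4 and Syt11, relatives that do not bind calcium through their first C2 domain, were at -0.03 ± 0.05 and 0.02 ± 0.04. Over all 7 calcium sensors the median difference was -0.024 and 3 values were positive. That median was -0.052 without Ts65Dn mouse 3 and 0.007 without control mouse 3, so its sign rested on single mice. Without Doc2a the median of the other 6 was -0.006.

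**Figure D2:**
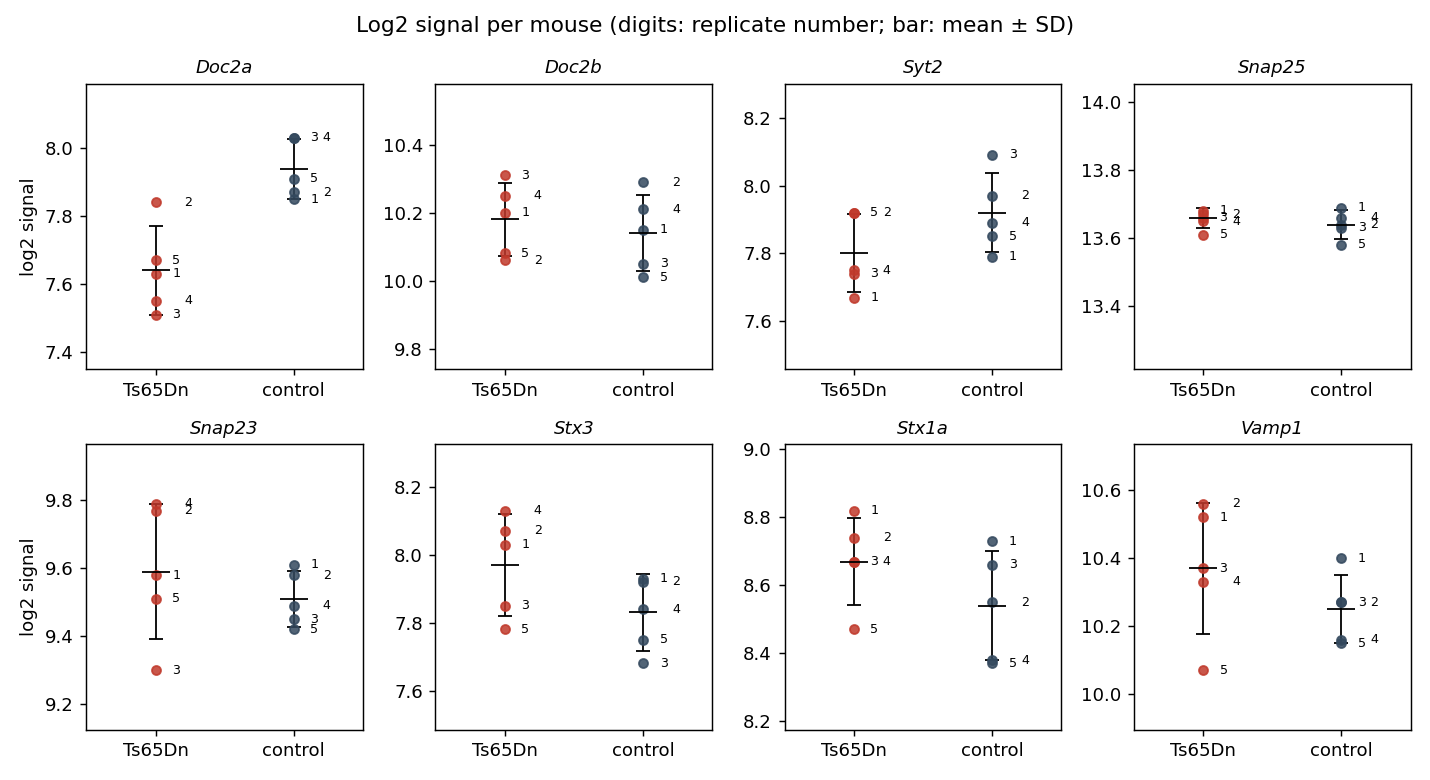
Log2 signal of 8 members in each mouse (points with replicate numbers), Ts65Dn left and control right, with mean and SD (n = 5 each); the axes cover ranges of equal width at different levels, and levels cannot be compared between genes. Doc2a is the panel in which the genotypes do not overlap.

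Among the 14 measured SNARE proteins, 13 differences were positive and 1, that of Vamp3, was negative. They ranged from -0.02 to 0.15 with a median of 0.064 (1.05-fold), and 0 members reached an unadjusted p under 0.05 in either direction. The interval lay within 1.2-fold for 9 of the 14. Snap25, the plasma membrane SNAP protein of neuronal exocytosis and a target of botulinum toxins, read 13.68, 13.67, 13.66, 13.65 and 13.61 in Ts65Dn mice, against 13.69, 13.64, 13.63, 13.66 and 13.58 in control mice. The groups lay on top of each other, at 0.02 ± 0.03 (SE), and the interval of 0.961 to 1.06-fold was among the narrowest of the members.

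Snap23, the widely expressed relative of Snap25 that also acts in dendrites and glia, was more variable. It read 9.58, 9.77, 9.30, 9.79 and 9.51 in Ts65Dn mice and 9.61, 9.58, 9.45, 9.49 and 9.42 in control mice. Ts65Dn mice held both the highest and the lowest value, and the difference was 0.08 ± 0.09 (SE; 0.928 to 1.2-fold, exact permutation p = 0.405). The remaining SNAP genes differed by 0.07 ± 0.05 (Snap47, an intracellular SNARE enriched in brain) and 0.05 ± 0.05 (Snap29, a SNARE of endosomes and autophagosomes).

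Syntaxins gave the highest differences. Stx3, a syntaxin of apical membranes, ribbon synapses and dendritic exocytosis, read 8.03, 8.07, 7.85, 8.13 and 7.78 in Ts65Dn mice, against 7.93, 7.92, 7.68, 7.84 and 7.75 in control mice. In Ts65Dn mice 1, 2 and 4 it was above all controls, and mice 3 and 5 were within the control range. The difference was 0.15 ± 0.08 (SE; 0.986 to 1.24-fold, exact permutation p = 0.119). Stx1a, a syntaxin of the presynaptic plasma membrane, read 8.82, 8.74, 8.67, 8.67 and 8.47 in Ts65Dn mice and 8.73, 8.55, 8.66, 8.38 and 8.37 in control mice. Its groups overlapped, with mouse 5 the lowest of both genotypes, and the difference was 0.13 ± 0.08 (SE; exact permutation p = 0.159).

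Stx6, a syntaxin of the trans-Golgi network and endosomes, read 10.92, 10.75, 10.93, 10.82 and 10.77 in Ts65Dn mice, against 10.77, 10.80, 10.75, 10.76 and 10.71 in control mice. Ts65Dn mice 1, 3 and 4 stood above all controls, and the difference was 0.08 ± 0.04 (SE; 0.991 to 1.13-fold, exact permutation p = 0.0714). The endosomal syntaxins Stx12 and Stx7 were at 0.06 ± 0.05 and 0.01 ± 0.04, and Stx4a, a plasma membrane syntaxin of many tissues, at 0.00 ± 0.05.

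Vamp1, a vesicle SNARE close to Vamp2, is given by mouse because the rank method called it, a choice made after its values were seen. It read 10.52, 10.56, 10.37, 10.33 and 10.07 in Ts65Dn mice, against 10.40, 10.27, 10.27, 10.16 and 10.15 in control mice. Ts65Dn mouse 5 had the lowest value of all 10 while mice 1 and 2 had the highest, and the difference was 0.12 ± 0.09 (SE; exact permutation p = 0.254). Vamp4, a SNARE of the trans-Golgi network with a part in asynchronous release, had the largest error of the members, at 0.08 ± 0.13. Vamp3, of recycling endosomes, was at -0.02 ± 0.07, and Vamp7, of late endosomes and growing neurites, at 0.03 ± 0.04. The transcript cluster shared by Ubr3 and Vamp2 read 13.17, 13.06, 13.08, 12.99 and 12.82 in Ts65Dn mice and 13.19, 13.04, 13.05, 12.99 and 12.80 in control mice. That difference was 0.01 ± 0.08 (SE), and the signals of the pair cannot be told apart.

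All 14 SNARE proteins averaged per mouse gave 9.95, 9.94, 9.91, 9.97 and 9.92 in Ts65Dn mice, against 9.90, 9.90, 9.86, 9.87 and 9.86 in control mice. The ranges of the genotypes did not overlap, although the gap between them was 0.01 and the mean difference 0.061. This is given with no test, since the list was drawn up with results of these arrays known, and no single SNARE gene separated the genotypes (0 with every Ts65Dn mouse above every control). The 7 calcium sensors, Doc2a among them, averaged 10.33 to 10.38 in Ts65Dn mice and 10.38 to 10.45 in control mice. Their mean difference, in the other direction, was -0.057. The 8 general neuronal markers averaged over each mouse differed by 0.016.

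**Figure D3:**
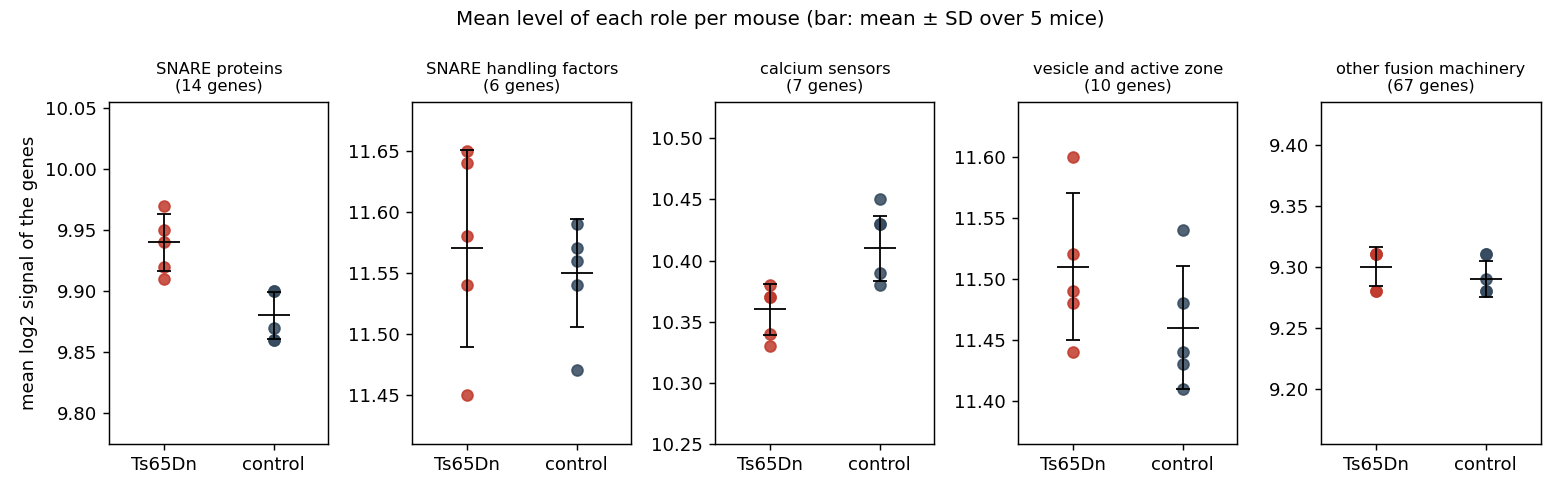
Mean log2 signal per mouse (points) over the genes of each role, Ts65Dn left and control right, with mean and SD over 5 mice; the last panel shows 67 other genes of vesicle fusion. The SNARE proteins lie at 9.91 to 9.97 in Ts65Dn mice and at 9.86 to 9.90 in control mice, and the ranges overlap or touch in the other panels.

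The 6 factors that handle SNARE proteins showed 0 calls by any of the tests, and all 6 intervals lay within 1.2-fold. Their median difference was 0.014, with 5 positive values, and it was -0.007 without Ts65Dn mouse 3 and 0.068 without Ts65Dn mouse 5. Napa, alpha-SNAP, which recruits NSF to spent complexes, read 11.65, 11.44, 11.61, 11.60 and 11.34 in Ts65Dn mice, against 11.43, 11.49, 11.39, 11.55 and 11.34 in control mice. Ts65Dn mice 1, 3 and 4 were above all controls and the others within their range, at 0.09 ± 0.07 (SE; exact permutation p = 0.246). Napb, its brain-specific relative beta-SNAP, read 12.68, 12.50, 12.57, 12.51 and 12.32 in Ts65Dn mice and 12.62, 12.42, 12.49, 12.46 and 12.36 in control mice. Its groups overlapped and differed by 0.04 ± 0.07 (SE), with mouse 1 the highest and mouse 5 the lowest of both genotypes. Nsf, the ATPase itself, was at 0.01 ± 0.04.

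Cplx2, a complexin of principal neurons, read 10.85, 10.68, 10.75, 10.62 and 10.76 in Ts65Dn mice and 10.72, 10.69, 10.84, 10.87 and 10.65 in control mice. The groups covered almost the same range and differed by -0.02 ± 0.06 (SE). Cplx1, its relative found mainly in inhibitory neurons, is given by mouse because 1 value stood apart, a choice made after its values were seen. It read 11.64, 11.68, 11.67, 11.63 and 11.24 in Ts65Dn mice, against 11.64, 11.60, 11.71, 11.46 and 11.38 in control mice. The difference was 0.02 ± 0.09, with mouse 5 again the lowest of both genotypes and far below the other Ts65Dn mice. Stxbp5, tomosyn, which competes with VAMP proteins for the syntaxin complex, was at 0.01 ± 0.04.

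Of the 10 vesicle and active zone genes, 9 had positive differences and 0 reached an unadjusted p under 0.05. The range was 0.00 to 0.11, the median 0.037, and the interval lay within 1.2-fold for 9 of them, all except Syn2. With 1 mouse left out the median ranged from 0.015 (without Ts65Dn mouse 3) to 0.059 (without Ts65Dn mouse 2 or 5 or control mouse 4). Syn2, a synapsin of the vesicle reserve, read 11.99, 12.01, 12.36, 12.24 and 11.99 in Ts65Dn mice and 12.03, 12.03, 12.00, 12.12 and 11.87 in control mice. Ts65Dn mice 3 and 4 were above all controls while the other 3 were inside their range, at 0.11 ± 0.08 (SE; exact permutation p = 0.302). Syn1, the other synapsin of the list, was at 0.03 ± 0.04.

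Pclo, the giant active zone scaffold piccolo, read 11.30, 11.21, 11.40, 11.38 and 11.38 in Ts65Dn mice, against 11.04, 11.24, 11.25, 11.43 and 11.26 in control mice. The groups overlapped, since control mouse 4 had the highest value, and the difference was 0.09 ± 0.07 (SE). Bsn, bassoon, its structural relative, was at 0.05 ± 0.07. Sv2b, a vesicle glycoprotein, read 12.44, 12.42, 12.59, 12.49 and 12.42 in Ts65Dn mice and 12.45, 12.30, 12.45, 12.47 and 12.35 in control mice. Here too the ranges overlapped, at 0.07 ± 0.05 (SE; exact permutation p = 0.214), and its relative Sv2a was at 0.02 ± 0.04.

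Rims1, a scaffold that docks vesicles and calcium channels, was at 0.04 ± 0.05, and Rab3a, the vesicle GTPase it binds, at 0.03 ± 0.05. Syp, synaptophysin, an abundant vesicle membrane protein used as a marker of synapses, differed by 0.00 ± 0.03 (SE), with an interval of 0.955 to 1.04-fold. Unc13a, Munc13-1, which primes vesicles, had 3 transcript clusters. The brightest was at 0.03 ± 0.07, and the other 2 were at 0.06 ± 0.05 and 0.16 ± 0.07. The last of these had an exact permutation p of 0.0873, so the clusters of this gene spread from near 0 to a value as high as that of Stx3.

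**Figure D4:**
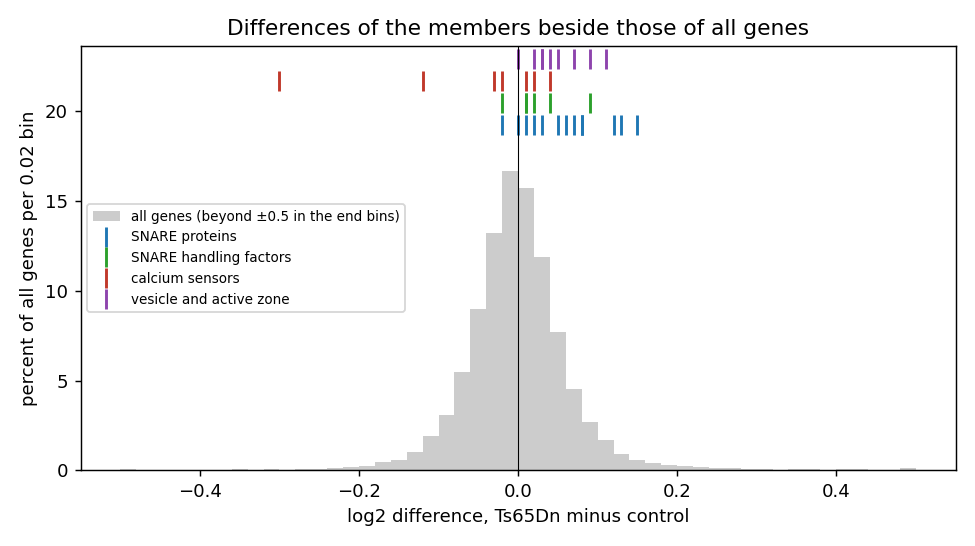
Distribution of the log2 difference (Ts65Dn minus control) over 19938 genes in bins of 0.02 (grey, percent of genes, values beyond ±0.5 in the end bins), with 1 coloured mark for each of the 37 members, in a line per role whose height carries no value. Doc2a is the mark at -0.30, and the SNARE proteins lie between -0.02 and 0.15.

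The mice with the same replicate number resembled each other for part of the members. Mouse 5 had the lowest value in both genotypes for 8 members (Snap25, Stx1a, Vamp1, Cplx1, Napa, Napb, Rims1 and Rab3a) and the highest in both for 3 (Vamp3, Vamp4 and Stxbp5). Mice 1 to 4 were lowest in both genotypes for 5, 5, 1 and 0 members. They were highest in both for 4, 0, 3 and 1 members. Such shared extremes were not counted over all genes. Over all tested transcript clusters, mice of the same number correlated at 0.0313 to 0.507 in their deviations from the genotype means. What a number stands for is not given in the labels. With the replicate number as a block, 0 members passed and the Doc2a difference stayed at -0.30 (limma, adjusted p = 0.442), while 2 members (Stx1a and Stx3) were higher and 1 (Doc2a) lower at an unadjusted p under 0.05. In that blocked fit 2.67% of all genes were higher and 2.61% lower at this limit.

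Of 69 further genes of the fusion machinery listed by hand, 67 were measured and 0 passed the adjusted threshold, with 37 positive differences (55.2%) and a median of 0.017. At an unadjusted p under 0.05 there was 1 higher (1.49%) and 0 lower, against 1.76% and 1.56% of all genes. Of genes outside the 3-copy segments, 1.36% were higher at this limit. The rank method gave 1 higher (1.49%) and 2 lower (2.99%), against 2.9% and 2.66% of all genes. The 1 gene was Syt12, a synaptotagmin that does not bind calcium, at 8.55, 8.46, 8.61, 8.45 and 8.41 in Ts65Dn mice and 8.37, 8.38, 8.33, 8.34 and 8.37 in control mice. Every Ts65Dn mouse was above every control mouse for it, at 0.14 ± 0.04 (SE; limma, adjusted p = 0.917). Such a separation was found for 1 of the 67 genes (1.49%), against 0.532% of all genes and 0.202% of those outside the 3-copy segments.

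Of all genes 47.6% had a positive difference, and their median was -0.003. No role was tested as a set. By role, the 19 other SNARE genes had 15 positive differences and a median of 0.032, and the 10 other handling factors had 8 and a median of 0.04. The 12 other calcium sensors and their relatives had 2 positive differences and a median of -0.041. Among them Syt10, a sensor of growth factor secretion in olfactory bulb neurons, was at -0.19 ± 0.11 (SE), Syt9, a fast calcium sensor of limbic neurons, at -0.16 ± 0.09, and Syt5, a vesicle synaptotagmin, at -0.11 ± 0.06. The rank method called Syt9 and Syt10 lower, and in limma the adjusted p of each of the 3 was 1.00. The 26 other vesicle and active zone genes had 12 positive differences and a median of -0.002, with Unc13c, a Munc13 of cerebellar granule cells, at -0.19 ± 0.13. The remaining genes with small p were Stx18 (0.08 ± 0.04) and Stx8 (0.10 ± 0.05), syntaxins of the endoplasmic reticulum and of endosomes, and Gosr1 (-0.07 ± 0.04), a Golgi SNARE. Averaged over the 67 genes, every mouse lay between 9.28 and 9.31 in both genotypes.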

How the data were processed

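RNA of whole hippocampus was measured on 10 arrays, 5 Ts65Dn and 5 control. The authors deposited log2 signals made by RMA, which corrects probe background, equalises the arrays and summarises probes. RMA, limma and mm10 are named, with no version, in the submitters' processing notes. RMA shrinks ratios near background. Each of the 10 value columns belonged to 1 mouse. Of 35556 rows, 21789 had 1 gene symbol, 1621 several and 12146 none, and the 23410 with a symbol were tested. The comparison used limma 3.58.1 (lmFit, eBayes; R 4.3.3), two-sided, with no term besides genotype. P-values were adjusted by Benjamini-Hochberg over the tested rows, and a call needed an adjusted p under 0.05. The fit was tested on simulated data. Exact permutation tests used all 252 allocations of mice and were not adjusted. The test of the study, FCROS, ranks fold changes over pairs of arrays; the rank method used here was written anew with limits of 0.025 and 0.975 and may differ from it. Gene positions are those of RefSeq on GRCm38. Members, roles and lists were chosen with earlier results of these data known. Given by mouse were Doc2a, Snap25, Snap23 and the 3 members of each role with the smallest p, to which Vamp1, Cplx1 and the clusters shared by 2 symbols were added after their values were seen; of the further fusion genes the 8 with the smallest p were named. Alternatives were other row sets, normalizations, variance models, thresholds, a replicate block, a choroid plexus covariate and leaving out each array. Precision is limited by the 5 arrays per genotype. Plots were drawn with matplotlib 3.10.9.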

Additional observations from a re-analysis of the deposited data

Results flagged for a closer look

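In 3 of the 74 groups of 5 mice formed by 37 members and 2 genotypes, 1 mouse stood apart from the other 4 by more than 0.71 of the group's range, where chance alone marks about 1 group in 20. Cplx1 was lowest in Ts65Dn mouse 5, at 11.24 with the nearest mouse at 11.63 (ratio 0.877). Syt7 was highest in Ts65Dn mouse 3, at 10.56 with the nearest at 10.43 (ratio 0.817), and Stx12 was highest in the same mouse, at 10.21 with the nearest at 10.07 (ratio 0.759). Without Ts65Dn mouse 5 the difference of Cplx1 was 0.10.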

How the results depend on the processing

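The count of members changed was 0 and became 4 with the rank method (Stx1a, Stx3, Vamp1 and Doc2a), and ranged from 0 to 1 with 1 array left out, the 1 being Doc2a without Ts65Dn replicate 2. The count for the further fusion genes was 0, became 3 with the rank method and stayed at 0 with each array left out. Ranking also selected many genes of the whole array, with 2.9% of all 19938 genes as higher and 2.66% as lower. The matching shares were 8.11% and 2.7% for the members, and 1.49% and 2.99% for the further fusion genes. The Doc2a difference was called by the rank method at -0.30 and ranged from -0.35 to -0.27 with 1 array left out, and its adjusted p over all alternatives from 0.0386 to 0.568. The median of the calcium sensors ranged from -0.052 (without Ts65Dn replicate 3) to 0.007 (without control replicate 3), that of the handling factors from -0.007 (without Ts65Dn replicate 3) to 0.068 (without Ts65Dn replicate 5), that of all members from 0.013 to 0.042, of the SNARE proteins from 0.044 to 0.069 and of the vesicle and active zone genes from 0.015 to 0.059. Over 888 alternatives of single members, 854 kept direction and call, 29 turned direction and 5 gained a call. The turned values belonged to 11 members, of which Vamp4 (0.08) turned without Ts65Dn replicate 5. With array weights Nsf was at 0.00 and Stx7 at -0.02. With 1 array left out the ranges were -0.03 to 0.10 for Cplx1, -0.05 to 0.01 for Cplx2, -0.01 to 0.04 for Nsf, -0.03 to 0.03 for Stx4a, -0.02 to 0.03 for Stx7, -0.01 to 0.03 for Stxbp5 and for Syt11, -0.06 to 0.01 for Syt4, -0.01 to 0.07 for Unc13a, -0.08 to 0.01 for Vamp3 and -0.02 to 0.17 for Vamp4. The causes were not tested. Mice of the same replicate number correlated at 0.0313 to 0.507 in their deviations from the genotype means and 7 of 10 arrays correlated best with their own number, a hint from the data and not from the design. With the replicate block 76 transcript clusters passed instead of 74, and the call of no member changed. The number of mice limits the precision of every difference.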
